A study of Mus musculus with 6 samples.

Results

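Arginine use and transport were followed through 8 genes in mouse bone marrow-derived macrophages, phagocytes grown in culture from marrow precursors, that were treated with thiothixene or with its solvent. The genes were chosen by function and by Ensembl identifier: Arg1, Arg2, Nos2, Ass1, Asl, Oat, Slc7a1 and Slc7a2, 8 of the 56691 gene rows counted. The treated group was 3 cultures given 2 µM thiothixene, an antipsychotic drug that blocks dopamine receptors, for 24 h on day 6. The other group was 3 cultures given DMSO for the same time. Cells of 3 mice, named a, b and c, each gave 1 culture per treatment, and the labels give no strain, sex, age or polarizing cytokine. The series title concerns dopamine antagonism and a vitamin A-dependent rise of arginase 1, so Arg1 and the genes around its substrate bear on that question. Values per library follow the order of mice a, b and c throughout.

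Arginine stands at a branch point in macrophages. Arginases split it to ornithine and urea, whereas the inducible nitric oxide synthase turns it into nitric oxide and citrulline. Citrulline can be rebuilt into arginine by argininosuccinate synthase and argininosuccinate lyase, ornithine is passed on by ornithine aminotransferase or ornithine decarboxylase, and cationic amino acid transporters bring arginine in from the medium. In mouse macrophages interleukin 4 is the classic inducer of Arg1, and bacterial lipopolysaccharide with interferon gamma is that of Nos2.

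Promoter sequence from RefSeq (GRCm38.p6) is shown for Ass1 and Slc7a1, a resynthesis gene and a transporter gene, the detected genes among those matched in the promoter table. In all, 3 of the 8 genes matched: Ass1, Slc7a1 and Oat. The windows are the 250 bases before the RefSeq start, chr2:31470020-31470269 on the plus strand for Ass1 and chr5:148399905-148400154 on the minus strand for Slc7a1, with capitals for an E-box (CACGTG) or a GC box (GGGCGG, read on both strands). The Ass1 start in GENCODE, used for the gene positions below, lies farther upstream, so that the last 63 bases of this window, with both marked motifs, are inside the gene as given there.
Ass1: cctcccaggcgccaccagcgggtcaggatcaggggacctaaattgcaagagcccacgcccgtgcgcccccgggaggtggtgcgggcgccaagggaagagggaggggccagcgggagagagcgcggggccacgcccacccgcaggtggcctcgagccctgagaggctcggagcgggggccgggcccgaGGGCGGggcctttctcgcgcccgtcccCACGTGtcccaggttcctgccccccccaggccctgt
Slc7a1: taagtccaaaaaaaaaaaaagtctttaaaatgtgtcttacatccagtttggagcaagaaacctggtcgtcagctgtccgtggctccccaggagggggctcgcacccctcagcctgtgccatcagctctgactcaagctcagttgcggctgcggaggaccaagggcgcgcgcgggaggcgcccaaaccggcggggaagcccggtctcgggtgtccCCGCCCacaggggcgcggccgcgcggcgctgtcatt
The Ass1 window held 1 E-box, which 6.02% of 32817 promoter windows of this length hold, and 1 GC box, found in 32.7% of them. The Slc7a1 window held 1 GC box, on the opposite strand. RefSeq lists another Slc7a1 start, inside the gene, whose window (chr5:148392816-148393065, minus strand, not printed) held 0 matches to either motif. None of these windows held a cAMP response element (TGACGTCA, both strands, in 1.55% of windows) or the core of an amino acid response element (TGATGNAA, both strands, in 3.45%). These matches describe letters and not binding.

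The libraries held 18548095 to 20264090 gene counts with thiothixene and 10472349 to 22297520 with DMSO, where the thinnest was that of mouse b. Of 11 macrophage markers 10 passed the expression filter, with summed levels of 12026 to 13650 CPM (counts relative to the scaled library size, on the usual CPM scale) with thiothixene and 11287 to 19474 CPM with DMSO. The remaining one, the integrin gene Itgam, had 1 count in all 6 libraries together. Dendritic, lymphocyte, erythroid and mast cell or basophil markers summed to 0 to 4.35 CPM in every library, with 7 of the 24 at 0 throughout. Neutrophil markers summed to 396.7 to 439.6 CPM with thiothixene against 455.4 to 889.1 CPM with DMSO, with Ly6g under 1 CPM in every library and none at 0. S100a9 had the highest mean CPM among them, and the difference between these sums was not tested. Stromal markers summed to 59.7 to 302.5 CPM with thiothixene and 102.1 to 174.8 CPM with DMSO, with Lum at 0. The part of these cells in the values below was not tested.

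Libraries of the same treatment differed in a way that followed gene length. In the DMSO library of mouse b, genes with a genomic span under 10 kb lay at a median of 0.61 above their mean log2 CPM over the 6 libraries, and genes of 50 kb or more at -0.55. The DMSO library of mouse c went the other way, at -0.45 for short and 0.31 for long genes, and the thiothixene library of mouse a stood at -0.23 and 0.23. The other 3 libraries lay between 0.01 and 0.14 in both classes. The part of this pattern in each result below was not tested, except in fits with an offset for gene span, an alternative chosen after the data were seen. In these the log2 fold change was -0.69 for Arg1, -0.36 for Arg2, -0.33 for Ass1, -0.37 for Asl, 0.43 for Slc7a1 and 0.54 for Slc7a2, with 0 of them called.

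Arg1, the arginase of the cytosol, a classic mark of alternative activation (ENSMUSG00000019987.10, chromosome 10, 24915221 to 24927484, minus strand, GRCm38), was the least abundant of the 6 genes that could be tested. Thiothixene libraries held 14, 8 and 10 counts, or 0.665, 0.429 and 0.493 CPM. The DMSO libraries held 14, 9 and 22 counts, or 0.625, 1.01 and 0.939 CPM. The groups overlapped through mouse a, where the thiothixene library was slightly the higher of the pair, while thiothixene was the lower in mice b and c. Counting error alone spans 0.185 to 0.846 CPM for the thiothixene library of mouse b and 0.460 to 1.91 CPM for its DMSO library (exact Poisson 95% intervals). For mouse c the intervals were 0.237 to 0.907 CPM with thiothixene and 0.588 to 1.42 CPM with DMSO, and those of mouse a overlapped as well. The differences seen within a mouse were thus not resolved at this depth. Overlap of intervals is no test, and it does not bear on larger differences. The fold of thiothixene over DMSO was 0.626, with a 95% interval from 0.191 to 2.05 in edgeR's quasi-likelihood test (log2 -0.68, SE 0.75, adjusted p 0.9998). In bulk RNA, fewer cells that express a gene and less RNA per cell cannot be told apart.

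Arg2, the mitochondrial arginase (ENSMUSG00000021125.7, chromosome 12, 79130777 to 79156301, plus strand), gave more counts than Arg1 in every library. It had 54, 35 and 30 counts (2.56, 1.88 and 1.48 CPM) under thiothixene. The DMSO libraries had 46, 16 and 80 counts (2.05, 1.79 and 3.41 CPM). The groups overlapped, and the highest value was the DMSO library of mouse c. The log2 fold change was -0.30 (SE 0.55), and the adjusted p was 0.9998 in edgeR. Of the 1428 Arg2 exon bases 285 also belong to exons of Vti1b on the opposite strand, a gene with 1191 to 1548 counts with thiothixene and 1164 to 1633 with DMSO. Gm48780, also on the opposite strand, shares 116 Arg2 exon bases and had 2 to 24 counts per library. Sharing of reads between these genes was not measured, so the Arg2 level is uncertain. Per exon length, Arg1 supplied 14.2%, 12.8% and 17.6% of arginase signal under thiothixene and 16.3%, 26.5% and 15.0% in the DMSO libraries. The DMSO library of mouse b had the highest share, with an exact binomial 95% interval of 12.3% to 46.4% for counting error, which holds the point values of the other 5 libraries. Per genomic span, a divisor chosen after the data were seen, the Arg1 share was 35.0%, 32.2% and 41.0% under thiothixene and 38.8%, 53.9% and 36.4% under DMSO, so its size depends on the divisor.

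Nos2, the inducible nitric oxide synthase (ENSMUSG00000020826.10, chromosome 11, 78920787 to 78960254, plus strand), was at the limit of detection. It had 0, 0 and 4 counts under thiothixene and 0 counts in each DMSO library. A count of 0, taken as allowing 3 counts, allows up to 0.142 and 0.161 CPM in the thiothixene libraries of mice a and b, and 0.134, 0.335 and 0.128 CPM in the DMSO libraries. The 4 counts of mouse c came to 0.197 CPM (0.0538 to 0.505 CPM, exact Poisson 95% interval), below the limit of the DMSO library of mouse b. Nos2 did not pass the expression filter, and no fold change is given. The neuronal and endothelial synthase genes Nos1 and Nos3 were not tested either, at means of 0.0658 and 0.140 CPM with thiothixene and 0.0893 and 0.112 CPM with DMSO.

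**Figure D1:**
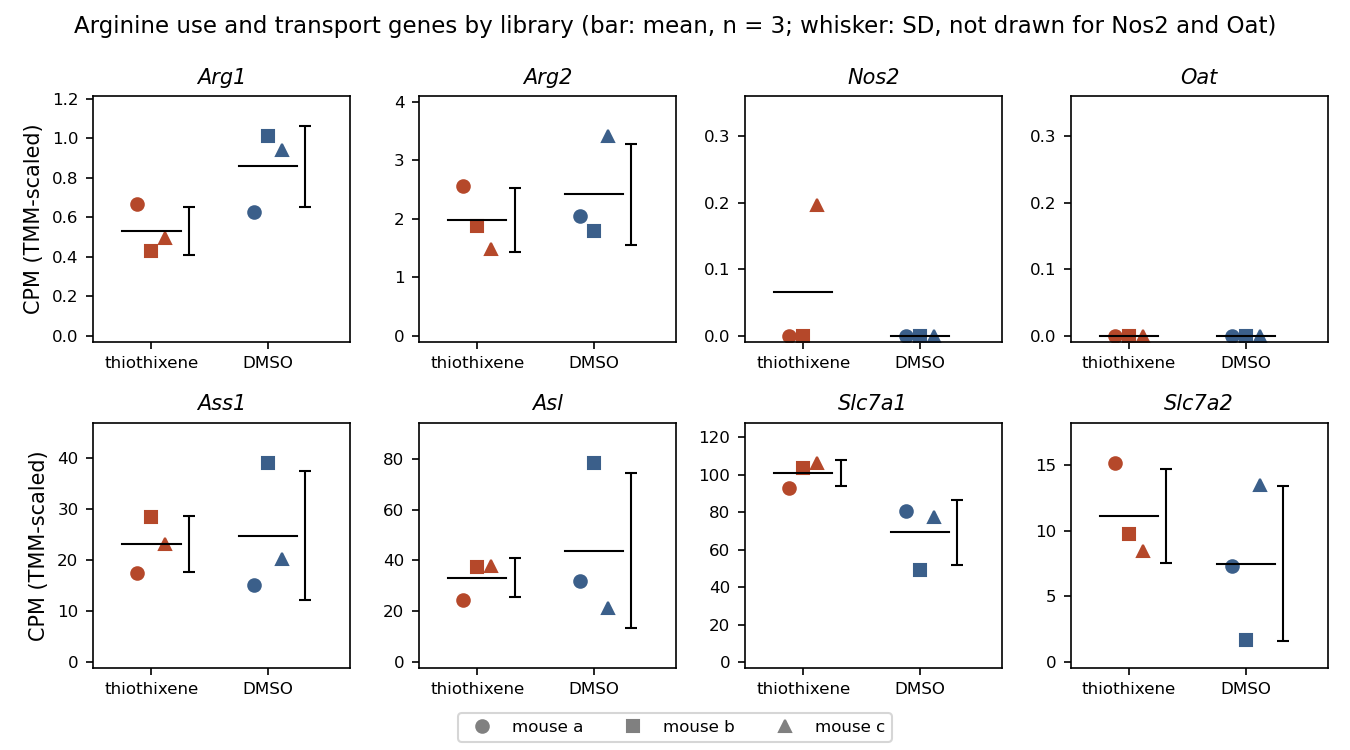
CPM of each gene (vertical axes, linear, a separate scale per gene) in the 3 thiothixene libraries and the 3 DMSO libraries, with a symbol per mouse, a bar for the mean and a whisker for the SD (n = 3, no whisker for Nos2 and Oat). Slc7a1 is the gene whose groups do not overlap, at 93.1 to 106.5 CPM with thiothixene and 49.3 to 80.7 CPM with DMSO, and the DMSO library of mouse b is the highest for Ass1 and Asl and the lowest for both transporters.

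Oat, ornithine aminotransferase (ENSMUSG00000030934.10, chromosome 7, 132557478 to 132576398, minus strand), had 0 counts in all 6 libraries, which for counting alone would allow at most 0.161 CPM in a thiothixene library and 0.335 CPM in a DMSO library. This 0 cannot be read as absence of the transcript, because of where the gene lies. Oat sits inside the annotated span of Fgfr2 (130162451 to 133123350, minus strand), a fibroblast growth factor receptor gene, without sharing an exon base with it. Of the 13 protein-coding genes inside that span on the same strand, 13 had 0 counts in all libraries, Oat among them. Of the 16 on the opposite strand 4 did. The row of Fgfr2 had 7593, 5815 and 5596 counts under thiothixene and 6791, 3285 and 8605 in the DMSO libraries. Its annotated span holds all the genes just counted, and which transcripts gave the Fgfr2 counts was not measured. The same held over the genome. Of 345 protein-coding genes inside another one of the same strand 342 (99.1%) had 0 counts throughout, both where exons overlapped (191 of 192) and where they lay apart (151 of 153). Of 493 genes inside a gene of the opposite strand only, 129 (26.2%) had 0, close to the 5590 of 21033 genes (26.6%) inside no other gene. Whether reads were assigned over whole gene spans by strand, and dropped where 2 spans of a strand meet, was not tested. The sources used here do not give the counting settings. Reads in no gene made up 43.07% to 44.35% of a library's total, and reads ambiguous between genes 1.68% to 3.02%. The macrophage integrin gene Itgam was placed much like Oat, with 99.9% of its span inside that of Gm49368 on the same strand. Among the 8 arginine genes only Oat lay inside another protein-coding gene of its strand in the annotation used here, whose release differs from that of the deposited tables.

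**Figure D2:**
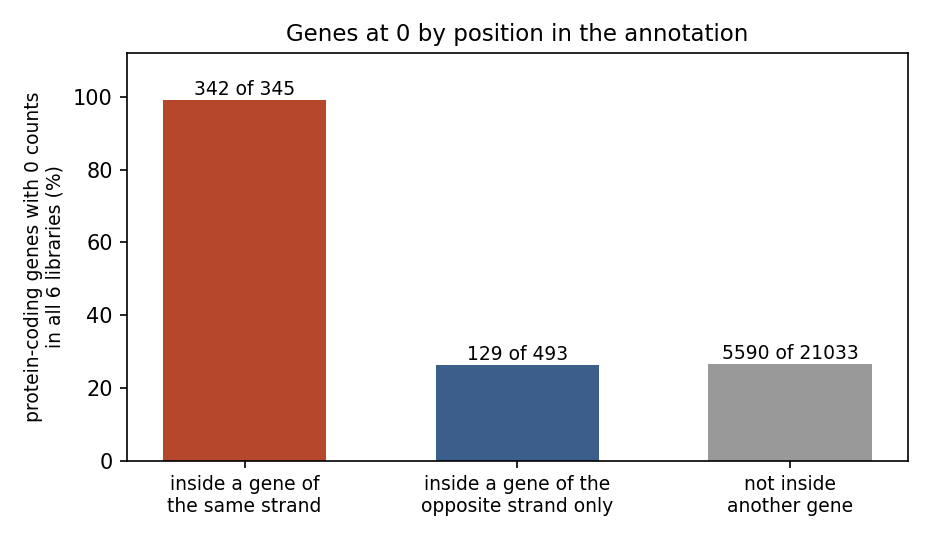
Percentage of protein-coding genes with 0 counts in all 6 libraries (vertical axis), by whether the gene's span lies inside another protein-coding gene of the same strand, of the opposite strand only, or of neither, with numbers of genes above the bars. Same-strand nested genes, Oat among them, were at 0 in 99.1% of cases, against 26.2% and 26.6% in the other classes.

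Ass1, argininosuccinate synthase, the step that joins citrulline and aspartate (ENSMUSG00000076441.10, chromosome 2, 31470207 to 31520672, plus strand), was expressed at a middle level. It measured 17.5, 28.5 and 23.2 CPM under thiothixene, against 15.1, 39.1 and 20.1 CPM in the DMSO libraries. Thiothixene was the higher in mice a and c and the lower in mouse b, so the groups overlapped. The log2 fold change was -0.10 (SE 0.42, adjusted p 0.9998 in edgeR), and it was -0.01 with the mouse as a block, -0.33 with offsets for gene span and 0.39 without the DMSO library of mouse b.

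Asl, argininosuccinate lyase, which releases arginine in the following step (ENSMUSG00000025533.16, chromosome 5, 130011258 to 130029247, minus strand), measured 24.3, 37.5 and 37.9 CPM under thiothixene and 31.7, 78.5 and 21.1 CPM under DMSO. The DMSO library of mouse b again stood far above the rest. The mean was 33.2 ± 7.73 CPM under thiothixene, compared with 43.8 ± 30.6 under DMSO (SD, n = 3 each). The log2 fold change was -0.39 (SE 0.49, adjusted p 0.9998 in edgeR), and it was -0.21 with the mouse as a block and 0.33 without that library. In that library both resynthesis genes lay above their mean over the libraries, by 0.78 for Ass1 and 1.17 for Asl on the log2 scale. Ass1 spans 50466 bases, in the class of long genes that were lower in that library, and Asl 17990 bases, in the middle class, whose median there was 0.01.

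Slc7a1 encodes CAT1, the widely expressed cationic amino acid transporter (ENSMUSG00000041313.15, chromosome 5, 148327410 to 148399904, minus strand). It had the highest CPM of the 8 genes, although the 0 of Oat leaves the level of that gene unknown. Slc7a1 measured 93.1, 103.5 and 106.5 CPM under thiothixene, against 80.7, 49.3 and 77.5 CPM in the DMSO libraries. All 3 thiothixene libraries lay above all 3 DMSO libraries, as they did for 3.88% of the 14856 tested genes (2.77% had all 3 lower, and none of the arginine genes did), and thiothixene was the higher in each mouse, as for 7.49% of them. The mean was 1.46 times as high with thiothixene, 101.0 ± 7.04 CPM against 69.2 ± 17.3 CPM with DMSO (SD, n = 3 each). This did not pass the test, with a log2 fold change of 0.55 (SE 0.29, 95% interval -0.13 to 1.22) and an unadjusted p of 0.0982 in edgeR (adjusted p 0.9998). Without the DMSO library of mouse b, which was the lowest, the log2 fold change was 0.35. Slc7a1 spans 72495 bases, and genes of 50 kb or more were lower in that library as a class.

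Slc7a2 encodes CAT2, the transporter known to be induced with Arg1 or Nos2 in activated mouse macrophages (ENSMUSG00000031596.16, chromosome 8, 40862396 to 40922308, plus strand). Slc7a2 shares 635 of its 9135 exon bases with Gm26584, a non-coding RNA gene on the opposite strand. Sharing of reads between these genes was not measured. Slc7a2 levels were 15.2, 9.72 and 8.43 CPM under thiothixene. The DMSO libraries gave 7.32, 1.68 and 13.5 CPM. The groups overlapped: the DMSO library of mouse c was the second highest of all, and thiothixene was the higher in mice a and b. With 15 counts, the DMSO library of mouse b lay at -2.14 relative to the gene's mean on the log2 scale, the largest deviation among the 6 tested arginine genes. The log2 fold change was 0.56 (SE 0.65, 95% interval -0.94 to 2.06, adjusted p 0.9998 in edgeR), 0.10 without that library, 0.93 with the mouse as a block and 1.73 in the blocked fit without mouse c. Per exon length Slc7a2 made up 17.1%, 10.6% and 9.09% of the signal of the 2 transporter genes with thiothixene and 10.3%, 4.12% and 18.0% with DMSO. Thiothixene in mouse a and DMSO in mouse c gave shares that stood well above the others. Per genomic span, a divisor chosen after the data were seen, they were 16.5% and 17.4%, against 3.95% to 10.2% in the other libraries. Genes of 50 kb or more were higher in those libraries as a class, and both transporter genes belong to it. The part of that pattern in the shares was not tested.

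**Figure D3:**
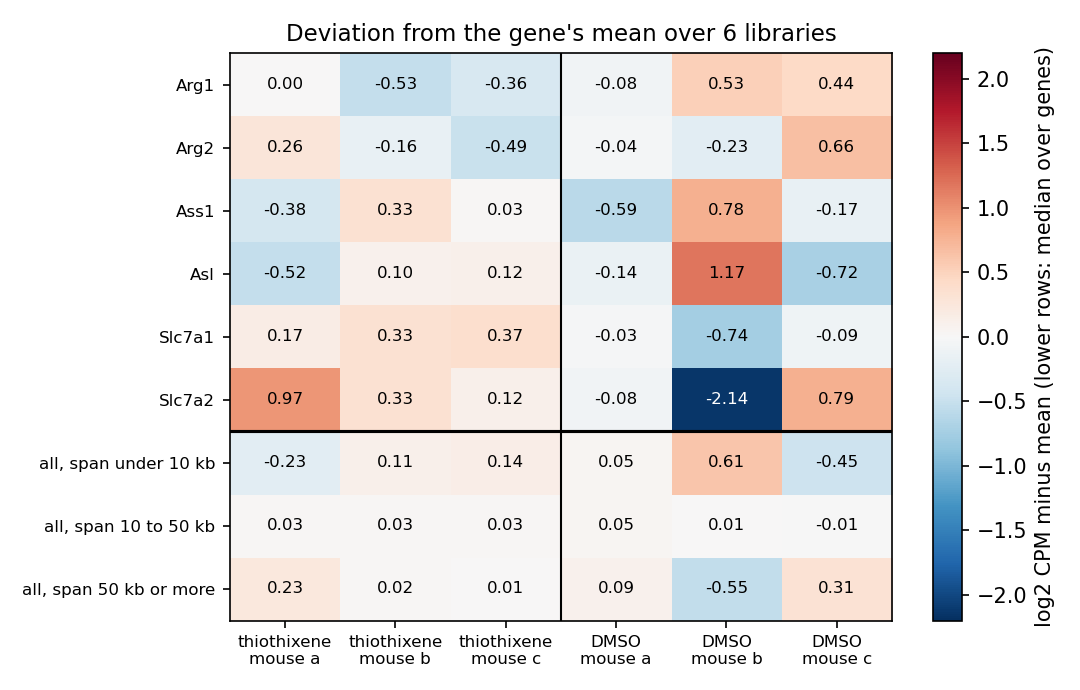
Deviation of log2 CPM from the gene's mean over the 6 libraries (colour and printed value, log2 units) for the 6 tested arginine genes, and below the line the median deviation of all tested genes by genomic span. The DMSO library of mouse b is at 1.17 for Asl and -2.14 for Slc7a2, and at 0.61 and -0.55 for genes under 10 kb and of 50 kb or more.

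Per exon length, Ass1, Slc7a1 and Asl led with thiothixene, at 9.55 ± 2.29, 8.76 ± 0.61 and 6.88 ± 1.60 CPM per kb (SD, n = 3). With DMSO they stood at 10.3 ± 5.24, 6.00 ± 1.5 and 9.06 ± 6.32 CPM per kb. Ass1 and Slc7a1 did not differ beyond their spread with thiothixene, where Slc7a1 (8.07, 8.98 and 9.24 CPM per kb) lay above Asl (5.03, 7.76 and 7.85 CPM per kb) in every library. With DMSO the 3 genes overlapped. Arg2 and Slc7a2 followed at 1.38 ± 0.384 and 1.22 ± 0.396 CPM per kb with thiothixene and 1.69 ± 0.611 and 0.820 ± 0.646 CPM per kb with DMSO. The ranges of these neighbours overlapped in both groups, although Arg2 lay above Slc7a2 in every library. Arg1 lay below both, at 0.238 ± 0.0546 with thiothixene and 0.384 ± 0.0911 CPM per kb with DMSO, and below it was Nos2, with counts in the thiothixene library of mouse c alone. Whether the counts include introns was not tested, so exon length may be the wrong divisor. Per kb of genomic span Asl led instead, at 1.85 with thiothixene and 2.43 CPM per kb with DMSO, before Slc7a1 at 1.39 and 0.954 and Ass1 at 0.457 and 0.491. Slc7a2 then preceded Arg2, at 0.186 against 0.0774 CPM per kb of span with thiothixene and 0.125 against 0.0947 with DMSO, and Arg1 was the lowest tested gene on either scale, at 0.0432 and 0.0698 CPM per kb of span with thiothixene and DMSO.

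Of the 8 genes 6 passed the expression filter, and 0 of these had an adjusted p under 0.05 in edgeR. Over all 14856 tested genes the share was 0.0%. At an unadjusted p under 0.05 there were 0 of the 6, against 1.72% of all tested genes, and DESeq2 and limma-voom called 0 of the arginine genes. The log2 fold change was above 0 for 2 genes, the transporters, and below 0 for 4, with a median of -0.20. Over all tested genes 6735 were above and 8121 below 0, with a median of -0.04. A p that misses the threshold does not show equal levels. Upper 95% bounds of the unblocked fit leave room for a rise of 2.05-fold for Arg1, 1.94-fold for Arg2 and 1.81-fold for Ass1. They leave room for 1.66-fold for Asl, 2.32-fold for Slc7a1 and 4.16-fold for Slc7a2. With the mouse as a block the SE of the log2 fold change was 1.23 for Arg1 (0.75 unblocked), 0.81 for Arg2 (0.55) and 0.42 for Slc7a1 (0.29). It was 0.44 for Ass1 (0.42), 0.47 for Asl (0.49) and 0.65 for Slc7a2 (0.65).

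**Figure D4:**
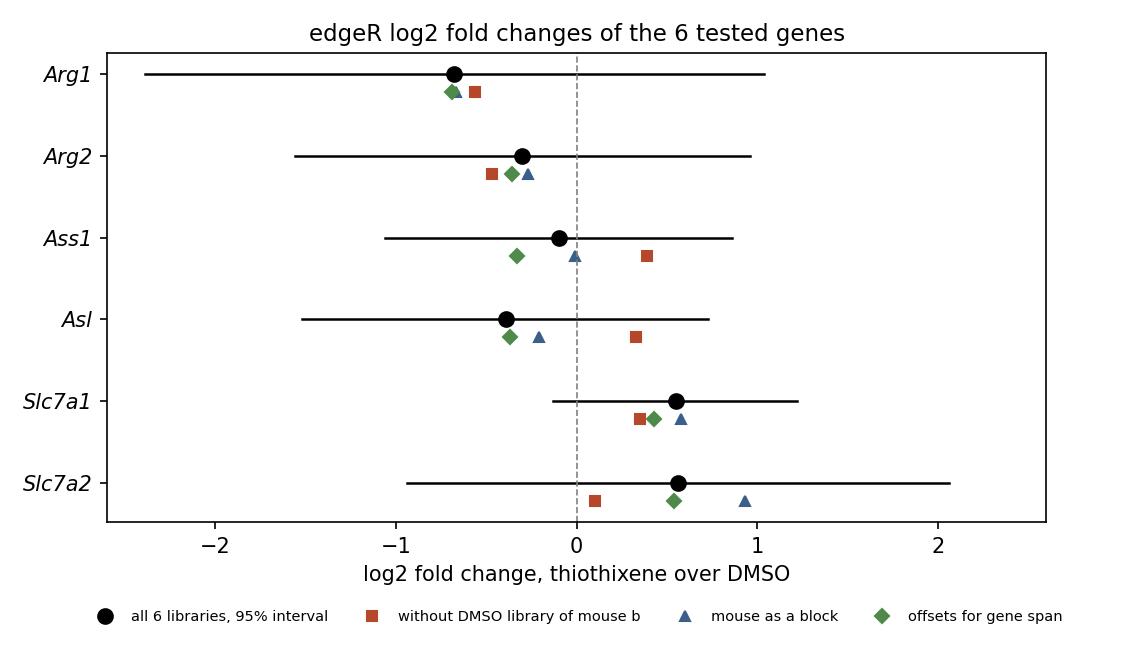
Log2 fold change of thiothixene over DMSO (horizontal axis) for the 6 tested genes, with black points and 95% intervals from edgeR on all 6 libraries and coloured points from alternative fits. Every interval holds 0, Slc7a1 has the narrowest (-0.13 to 1.22), and Ass1 and Asl change side, to 0.39 and 0.33, without the DMSO library of mouse b.

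Around these genes, 6 lists of 65 genes were read off the same fit, and 0 of their 54 tested members passed in either direction, with 0 at an unadjusted p under 0.05 in edgeR and 0 called by DESeq2 or limma-voom. Urea cycle and creatine genes had 5 of 10 members tested, 3 above and 2 below 0 (median 0.06). The liver enzymes of the cycle, Cps1 and Otc, had 0 counts throughout. Gatm, which transfers the amidino group of arginine towards creatine, measured 67.6 ± 10.9 under thiothixene and 84.3 ± 16.9 CPM under DMSO, and the aspartate-glutamate carrier gene Slc25a13 55.8 ± 6.17 under thiothixene and 42.3 ± 4.15 CPM under DMSO. Genes of the other synthases and of their cofactor tetrahydrobiopterin had 7 of 10 tested, 1 above and 6 below 0 (median -0.32). Among them Qdpr, which regenerates the cofactor, had a log2 fold change of -0.17 (SE 0.45).

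Other arginine transport and sensing genes had 9 of 10 tested, 3 above and 6 below 0 (median -0.08). Slc3a2, the heavy chain that carries y+L transporters to the membrane, measured 410.4 ± 98.6 CPM under thiothixene and 528.1 ± 286.9 under DMSO. Slc38a9, a lysosomal arginine sensor upstream of mTORC1, measured 47.1 ± 6.10 under thiothixene and 46.5 ± 14.4 CPM under DMSO. Methylarginine genes had 8 of 9 tested, 3 above and 5 below 0 (median -0.16), with the arginine methyltransferase genes Prmt1 at -0.22 (SE 0.39) and Prmt7 at -0.20 (SE 0.34). Genes that take ornithine to polyamines and proline had 9 of 10 tested, 2 above and 7 below 0 (median -0.35). Azin1, the antizyme inhibitor that spares ornithine decarboxylase, measured 523.3 ± 64.3 under thiothixene and 350.6 ± 211.6 CPM under DMSO, and Oaz1, an antizyme, 215.5 ± 82.0 under thiothixene and 311.5 ± 286.3 CPM under DMSO. The log2 fold change of Azin1 was 0.58 (SE 0.43), 0.27 without the DMSO library of mouse b, 1.18 without that of mouse c (unadjusted p 0.00607, adjusted p 0.776 in edgeR) and 1.21 in the blocked fit without mouse c (unadjusted p 0.00341, adjusted p 0.17 in edgeR). Aldh4a1, at 0 throughout, lies inside another gene of its strand as Oat does.

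Known regulators of Arg1 and Nos2 were all expressed: 16 of 16 were tested, 9 above and 7 below 0 (median 0.06, range -0.54 to 0.34). The most abundant were Stat6, the interleukin 4 signal transducer, at 226.9 ± 40.6 CPM under thiothixene and 207.4 ± 45.1 under DMSO, and Rxra, a retinoid X receptor gene, at 140.9 ± 33.8 under thiothixene and 121.8 ± 50.1 CPM under DMSO.

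Over these lists, 4 of 54 tested genes had groups that did not overlap, 3 with thiothixene higher and 1 with it lower. That is near the background of 3.88% higher and 2.77% lower over all tested genes and is no result about the lists. The 3 genes beside Slc25a13 were picked out after their values were seen. Slc7a6, a y+L transporter gene, measured 25.5 ± 1.30 CPM under thiothixene and 20.6 ± 0.518 under DMSO. Aldh18a1, which starts proline and ornithine synthesis from glutamate, measured 40.0 ± 2.83 CPM under thiothixene and 36.2 ± 1.05 under DMSO. Pts, an enzyme of tetrahydrobiopterin synthesis, was the one with all thiothixene values below all DMSO values, at 22.9 ± 3.06 CPM under thiothixene and 36.4 ± 10 under DMSO (log2 -0.67, SE 0.31). None of these passed the test (adjusted p 0.9998 in edgeR).

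Other genes with profiles most like those of the 3 arginine genes of highest mean CPM were sought over the 6 libraries. The measure was the root mean square difference of centred log2 CPM, among 14855 genes. For Slc7a1 Foxk2 was the nearest, with a difference of 0.0528, where the median over all genes was 0.596. For Asl they were Napsa (0.0435) and Gphn (0.0443), with a median of 0.764. For Ass1 they were Magohb (0.0844) and Saysd1 (0.108), with a median of 0.668. The profiles of the Asl and Ass1 sets share the high value in mouse b under DMSO, and 6 libraries from 3 mice give little to tell profiles apart.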

How the data were processed

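Total RNA was read as paired ends of 150 bp, per the labels' protocols. The authors deposited raw counts per gene, in 1 file for each culture: 56691 rows were genes, and 5 rows named none. Those 5 held 51.19% to 53.42% of a library's total and stayed out of library sizes and tests. Among them, reads in no gene made up 43.07% to 44.35% of the total and reads ambiguous between genes 1.68% to 3.02%. What these shares say about how reads were counted was not tested. Per the submitters' processing notes, which list no roles, the authors used STAR 2.7.11b, Trim Galore 0.6.10, FastQC 0.11.8, the mm10 build and DESeq2 1.44. How reads were counted, by strand or not and with which gene annotation, is not given in the sources used here.

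Symbols, positions and lengths came from GENCODE M21 (GRCm38), by identifier with the version cut off, which placed 52073 of the genes and left 4618 unplaced. Treatment alone was fitted in the robust quasi-likelihood model of edgeR 4.0.16 under R 4.3.3, after its default expression filter (14856 genes kept) and TMM scaling. Benjamini-Hochberg adjusted p under 0.05 over all these genes was called. The procedure was tested on simulated data. CPM use TMM-scaled library sizes, and log2 CPM a prior count of 2. Limits take a count of 0 as up to 3 counts, and shares have Clopper-Pearson intervals; both, and Poisson intervals, cover counting error only.

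Titles pair libraries by mouse letter, from the same animal. Deviations from the group means correlated at -0.131 (mouse a), 0.318 (b) and -0.301 (c). The alternatives were the mouse as a block, RLE, other filters, DESeq2 1.42.0, limma-voom (limma 3.58.1), leaving out libraries or mice and, added after the data were seen, offsets for gene span (spline, 5 degrees of freedom). Named were the 8 genes and the 2 tested genes of highest mean CPM in each neighbouring list without calls. For the 3 arginine genes of highest mean CPM, the 2 nearest profiles were named too. Of the genes this rule names, 2 are not reported here. Nos1, Nos3, Cps1, Otc, Aldh4a1, Fgfr2, Itgam and other marker genes at or near 0 were named after their values were seen. The members and lists were chosen with earlier results of these data known.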

Additional observations from a re-analysis of the deposited data

How the results depend on the processing

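In every alternative fit 0 of the arginine genes and 0 genes of the neighbouring lists were called, including the fit with the mouse as a replicate block. Over all genes the count was 0 with the replicate block, RLE, the stricter filter, limma-voom and span offsets, 1 without a filter (higher), 2 in DESeq2 (both higher) and 0 to 45 on leaving out a library or mouse, the 45 (11 higher, 34 lower) without mouse c. Arg1 stayed below 0 wherever it was kept (the stricter filter removed it), and Slc7a1 (0.33 to 0.77) and Slc7a2 (0.10 to 1.73) stayed above 0 on leaving out libraries or mice. Slc7a2 reached 1.73 in the blocked fit that left out mouse c (unadjusted p 0.00198 in edgeR, adjusted p 0.132). With limma-voom the log2 fold change turned sign for Ass1 0.06, Qdpr 0.04, Magohb 0.13 and Saysd1 0.06, and with span offsets for Slc38a9 -0.09 and Rxra -0.04. Leaving out libraries or mice gave ranges across 0 for Arg2 (-0.58 to 0.21), Ass1 (-0.35 to 0.39), Asl (-0.72 to 0.33), Qdpr (-0.50 to 0.45), Slc3a2 (-0.70 to 0.17), Slc38a9 (-0.23 to 0.35), Prmt1 (-0.44 to 0.31), Prmt7 (-0.38 to 0.24), Oaz1 (-1.12 to 0.49), Stat6 (-0.14 to 0.43), Rxra (-0.23 to 0.73), Napsa (-0.73 to 0.39), Gphn (-0.70 to 0.39), Magohb (-0.38 to 0.44) and Saysd1 (-0.31 to 0.31). The cause was not tested. With raw counts in place of counts per exon length, the mean Arg1 share of arginase was 21.4% with thiothixene and 27.0% with DMSO, against 14.9% and 19.3% per exon length, and per genomic span (chosen after seeing the data) 36.1% and 43.0%. Depth limits Arg1 and Nos2, and the DMSO library of mouse b is the thinnest.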
